A study of Homo sapiens with 15 samples.

Results

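The HOX genes were taken as the rows of the counts table whose Ensembl ID has a symbol made of HOX, a cluster letter from A to D and a number. The rule found 40 rows with 39 symbols among 57736 genes, since HOXC5 stood under 2 IDs (ENSG00000172789 and ENSG00000273046). They comprised 11 rows of the HOXA cluster on chromosome 7, 10 of HOXB on chromosome 17, 10 of HOXC on chromosome 12 and 9 of HOXD on chromosome 2.

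HOX genes encode homeodomain transcription factors that give cells of the embryo their place along the head-to-tail axis, and fibroblasts keep a HOX pattern that reflects the site they came from. Each cluster holds its genes in order of paralog number, from the 3′ end, whose members act toward the head, to the 5′ end, whose members act in the lower trunk, the distal limbs and the genital tract. Retinoic acid switches on 3′ members first, Trithorax-type complexes keep active HOX genes on, Polycomb complexes keep the others off, and the proteins bind DNA together with PBX and MEIS cofactors. HOXA5 and HOXB5 are known from mouse for their part in lung branching, where they act in the mesenchyme.

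The cells were IMR90, a line of human fetal lung fibroblasts from a single donor, and 15 libraries fell into 5 groups of 3. The siControl RAS group carried a RAS retrovirus and a siRNA with no target, the knockdown group RAS, a siRNA against METTL14 and a lentiviral vector, the wild-type add-back group RAS, that siRNA and lentiviral METTL14, and the R298P add-back group RAS, that siRNA and lentiviral METTL14 with the R298P substitution. The control group carried the empty retrovirus and the siRNA with no target. Oncogenic RAS sends normal fibroblasts into senescence, a durable stop of cell division, and METTL14 helps METTL3 to methylate adenosines in RNA. The retrovirus came 4 days before the first siRNA, a second dose was given the next day with any lentivirus, and cells were harvested 48 hours after that. Whether siControl RAS cells also received a lentiviral vector was not stated. The labels call the groups knockout and knock-in, but their protocols describe siRNA and lentivirus, and they name neither the RAS isoform nor separate cultures behind the 3 libraries of a group, so p-values measure a spread that may be technical.

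Levels are CPM, counts scaled to a library total of 1000000 after TMM normalisation, given per library or as mean ± SD with n = 3. The libraries were 3′ tag libraries with about 1 tag per transcript, so levels can be set side by side between genes without a correction for length. Tests were edgeR's quasi-likelihood tests, two-sided, on 13516 genes at once, and a gene counts as called where its p, adjusted by Benjamini-Hochberg, was under 0.05. Changes are log2 fold changes ± SE. In bulk RNA fewer cells that express a gene and less RNA per cell cannot be told apart.

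The libraries held 4917661 to 7763084 counts each, so 3 counts in the shallowest library made 0.61 CPM. METTL14 had 9.35, 4.94 and 3.94 CPM in knockdown, 508, 564 and 564 CPM in wild-type add-back and 892, 907 and 1037.9 CPM in R298P add-back libraries, against 26.2, 19.3 and 20.5 CPM in siControl RAS and 19.1, 21.2 and 23.3 CPM in control libraries, as the labels state. On the third principal component (4.97% of the variance) knockdown replicate 1 stood apart, and on the fourth (4.53%) replicate 3 of 3 RAS groups (siControl, wild-type and R298P) did. All 12 fibroblast markers had counts in every group, with summed levels of 22783.9 to 23850.6 CPM in siControl RAS and 11069.6 to 11259.5 CPM in control libraries. The 11 epithelial markers summed to 52.6 to 70.2 CPM in siControl RAS and 138 to 151 CPM in control libraries, with CDH1, KRT5, KRT14 and SFTPC at 0 throughout. Endothelial markers, with CDH5 and ERG at 0 throughout, summed to 31.7 to 35.5 CPM in siControl RAS and 14.4 to 24.0 CPM in control libraries, and leukocyte markers to at most 2.63 CPM in any library. The part of these differences in the HOX results was not tested.

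Among regulators encoded inside the clusters are the miR-196 and miR-10 microRNAs, whose known targets are HOX messages. They were not measured in these libraries, and their sequences are shown because HOXB8 and HOXC8, known targets of miR-196, were among the HOX genes that rose with RAS. RefSeq (GRCh38.p14) places copies of miR-196a at chr17:48632532-48632553 on the minus strand in HOXB and chr12:53991762-53991783 on the plus strand in HOXC, miR-196b at chr7:27169528-27169549 on the minus strand in HOXA and miR-10a at chr17:48579904-48579926 on the minus strand in HOXB. Capitals mark the seed, bases 2 to 8, which miR-196a and miR-196b share.
hsa-miR-196a-5p: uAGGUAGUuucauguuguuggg
hsa-miR-196b-5p: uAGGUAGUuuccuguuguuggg
hsa-miR-10a-5p: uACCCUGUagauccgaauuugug
In the 3′ untranslated region of HOXB8, chr17:48612770-48612791 on the minus strand (GRCh38, GENCODE 29) paired with miR-196a at 21 of 22 positions, the most among the 39 HOX genes, with the unpaired position opposite the seed. HOXC8 held the complement of the seed at chr12:54011495-54011516 and chr12:54012231-54012252 on the plus strand, with 12 of 22 positions paired at each, and the closest site of HOXA7 that holds it, chr7:27154430-27154451 on the minus strand, paired at 15. Capitals mark the bases opposite the seed, all sites are written as DNA, and pairing was counted without gaps or G-U pairs.
HOXB8 site: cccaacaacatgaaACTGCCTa
HOXC8 upstream site: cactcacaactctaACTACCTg
HOXC8 downstream site: taaatctttaacatACTACCTa
HOXA7 site: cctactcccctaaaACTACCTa
The seed complement ACTACCT, read on the transcript's strand, lay in the longest 3′ untranslated region of 8.29% of 11788 tested genes and of 6 of the 16 tested HOX genes, among them HOXA5, HOXA7, HOXB6, HOXB7 and HOXC8. Of these named genes HOXC8 alone was called in siControl RAS against control. HOXA7, which holds several such sites, differed by -1.03 ± 0.45 there, and HOXA5, HOXB6 and HOXB7 by -0.09 to 0.22. A part of miR-196 in these values was not tested. The complement of the miR-10a seed, ACAGGGT, lay in 14.9% of those genes and in 3 of the 16 tested HOX genes, HOXA3 and HOXB3 among them.

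HOX levels differed far more between clusters than between groups. HOXB genes held 92.3% of the 68023 HOX counts, HOXA genes 7.21%, HOXC genes 0.447% and HOXD genes 0.0118%. Members 1 to 4 of any cluster, at the 3′ end, held 27.8%, middle members 5 to 8 held 72.1% and members 9 to 13, at the 5′ end, 0.118%. HOXB5 alone held 56.8%, HOXB4, known for expanding blood stem cells, 11.5%, and HOXB3, a gene of the hindbrain and the thyroid, 9.25%.

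Along HOXB the levels peaked at HOXB5 and ended at HOXB8. The mean over all 15 libraries was 33.3 CPM for HOXB2, 71.0 for HOXB3, 88.9 for HOXB4, 435 for HOXB5, 22.6 for HOXB6, 46.3 for HOXB7 and 11.4 for HOXB8. HOXB1, HOXB9 and HOXB13 had 0 counts in all libraries, which allows a level of up to 0.034 CPM over the 15 libraries. HOXA peaked at the same paralog, with 28.4 CPM for HOXA5, 9.39 for HOXA4, 7.74 for HOXA3, 4.49 for HOXA7, 1.34 for HOXA2 and 1.13 for HOXA6. The HOXA genes 5′ of these were near the floor, with 24 counts in all for HOXA9, 28 for HOXA10, 16 for HOXA11 and 2 for HOXA13.

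HOXC and HOXD were nearly silent. HOXC6 and HOXC8, which in mouse set the form of thoracic vertebrae, averaged 2.17 and 1.10 CPM. HOXC4 had 7 counts, HOXC9 had 2, the second HOXC5 ID had 2, and the first HOXC5 ID and HOXC10, HOXC11, HOXC12 and HOXC13 had 0. In HOXD, 8 counts of HOXD11 fell in 2 libraries, and HOXD1, HOXD3, HOXD4, HOXD8, HOXD9, HOXD10, HOXD12 and HOXD13, the last a gene of digits and external genitalia, had 0. In all, 16 rows passed the filter on low counts (7 HOXA, 7 HOXB and 2 HOXC), 8 had counts below it and 16 had none, so no member 9 to 13 and no HOXD gene was tested. HOXA3 overlaps HOXA4, HOXA5 and HOXA6 on the same strand in GENCODE 29, HOXB3 overlaps HOXB4, HOXB5 and HOXB6, and HOXB7 overlaps HOXB8 and HOXB9. Likewise HOXC6 overlaps HOXC4, HOXC5, HOXC8 and HOXC9 on the same strand. How tags in such overlaps were assigned is not stated, so the split between those neighbours is uncertain.

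**Figure D1:**
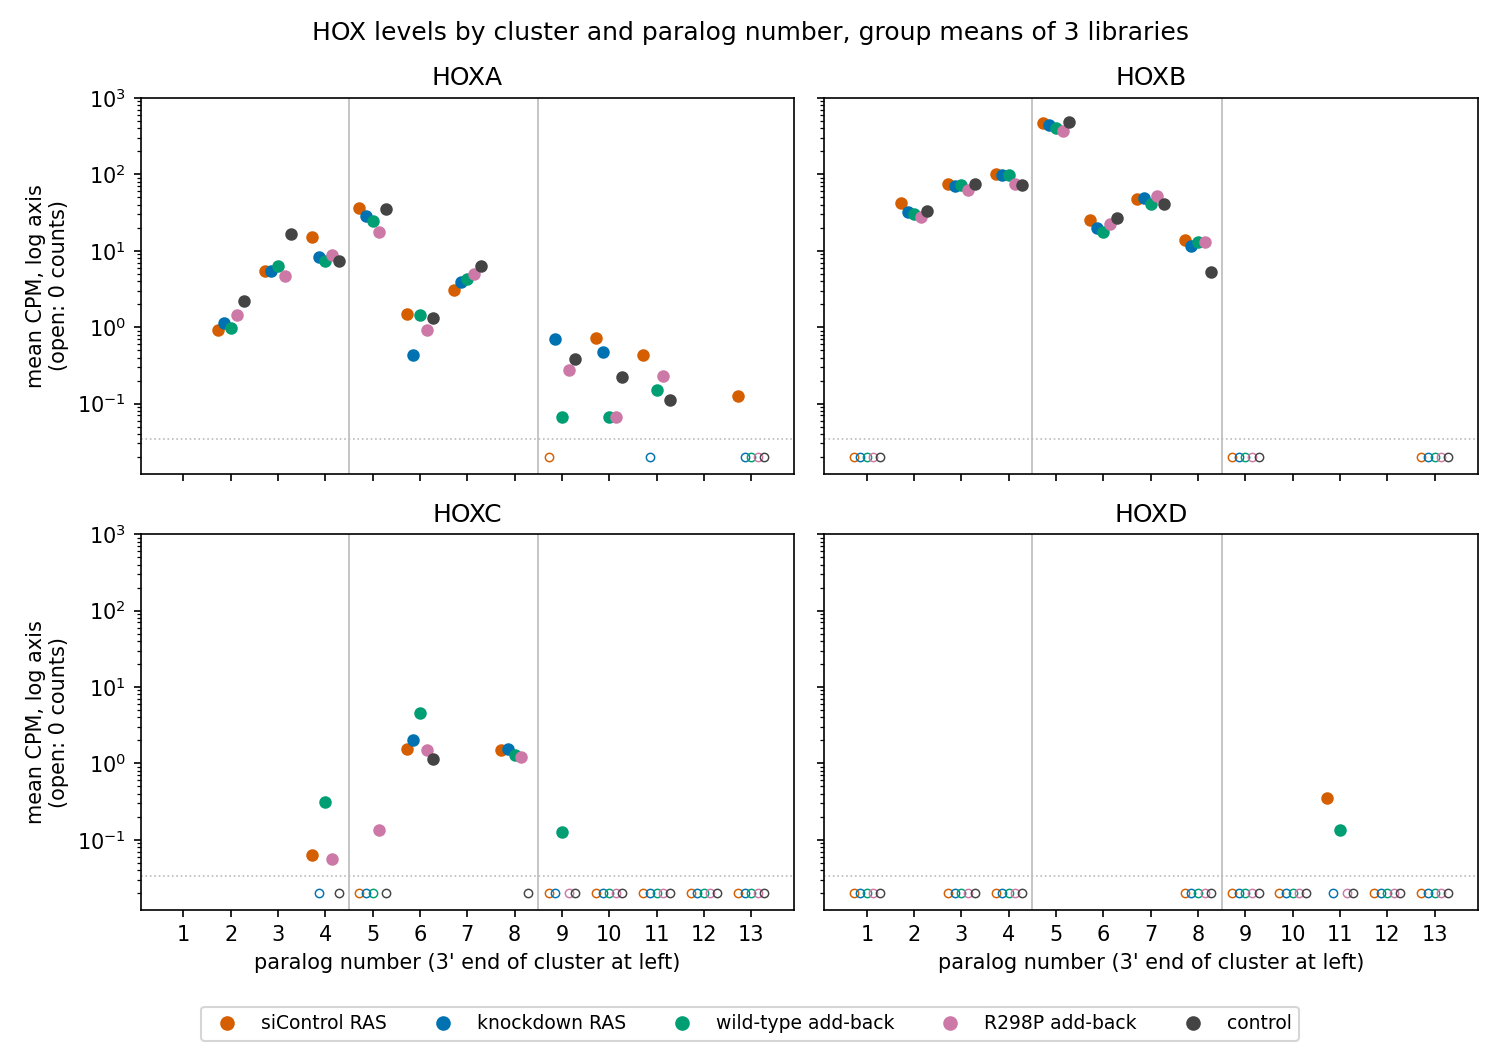
Mean CPM of 38 HOX genes (log axis) by cluster and paralog number, with 5 groups of 3 libraries each in colour. Open symbols at the foot mark 0 counts in a group, and the dotted line is 0.034 CPM, 3 counts over all libraries. HOXB5 is the highest gene in each of the 5 groups, and HOXD holds counts at HOXD11 alone.

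Summed over the cluster, HOXB reached 777 ± 45.7 CPM in siControl RAS, 729 ± 36.5 in knockdown, 672 ± 30.6 in wild-type add-back, 620 ± 17.5 in R298P add-back and 743 ± 36.4 in control libraries. The R298P libraries (607 to 640 CPM) lay below all knockdown libraries (691 to 764 CPM). HOXA summed to 65.6 ± 8.84 CPM in siControl RAS, 51.0 ± 3.15 in knockdown, 46.1 ± 3.86 in wild-type add-back, 40.0 ± 6.25 in R298P add-back and 71.1 ± 2.07 in control libraries. No HOXA sum of a knockdown or add-back library (33.0 to 53.9 CPM) reached the lowest siControl RAS library (59.7 CPM) or the lowest control library (69.5 CPM). The 3′ members held 28.5 ± 2.82% of HOX CPM in siControl RAS, 27.8 ± 1.27% in knockdown, 30.0 ± 0.329% in wild-type add-back, 27.2 ± 1.97% in R298P add-back and 25.5 ± 1.59% in control libraries. The 3 wild-type libraries (29.6 to 30.2%) lay above the 3 control libraries (24.0 to 27.2%). The siControl RAS (26.8 to 31.8%), knockdown and R298P libraries overlapped the control libraries. In summed CPM the 3′ members overlapped between wild-type (208 to 226 CPM) and control libraries (197 to 231 CPM). The middle members were lower in wild-type (484 to 521 CPM) than in control libraries (577 to 625 CPM). Sums over members carry no test.

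The comparison of siControl RAS with control sets this pattern in RAS cells beside that of cells without RAS. HOXA4, HOXB4, HOXB8 and HOXC8 rose and HOXA3 fell, so 5 of 16 tested HOX genes were called, or 31.2%, against 45.9% of all genes tested. The 4 that rose compare with 24.0% of all genes that rose, and the 1 that fell with 21.9% that fell. These counts, and the later ones against control and over all 5 groups, include HOXC8, which passed the filter through RAS libraries. The median change of the 16 was 0.19, against 0.00 for all genes. HOXB5 was the highest in both groups, while HOXB4 (102 ± 18.3 CPM) stood above HOXB3 (74.1 ± 12 CPM) in siControl RAS cells and beside it in control cells (72.7 ± 9.96 and 75.0 ± 7.37 CPM).

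The largest fall was that of HOXA3, which in mouse is needed for the thymus and parathyroid. HOXA3 had 7.90, 6.56 and 1.96 CPM in siControl RAS libraries, against 15.6, 17.3 and 17.5 CPM in control libraries. Every siControl RAS library lay below every control library, and replicate 3 was the lowest. The change was -1.60 ± 0.39 (adjusted p = 0.000877), a 3.03-fold fall.

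Its 5′ neighbour HOXA4, a gene of the neck vertebrae in mouse, moved the other way. HOXA4 had 22.2, 12.6 and 10.3 CPM in siControl RAS libraries, against 5.78, 9.88 and 6.15 CPM in control libraries. The groups did not overlap, but siControl RAS replicate 1 stood well above its fellows. The rise was 1.06 ± 0.32 (adjusted p = 0.00700), and without that library it was 0.65 and not called (adjusted p = 0.141). Since HOXA3 and HOXA4 overlap on the same strand, the split of tags between them is uncertain, and its part in these changes was not tested.

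The promoters of these neighbours are shown because the genes moved in opposite directions, from RefSeq windows of 250 bases before to 50 after the start (GRCh38.p14), with CG pairs in capitals. For HOXA3 the window is that of the start farthest downstream, chr7:27113793-27114092 on the minus strand, and for HOXA4 it is chr7:27130708-27131007 on the minus strand.
HOXA3 promoter: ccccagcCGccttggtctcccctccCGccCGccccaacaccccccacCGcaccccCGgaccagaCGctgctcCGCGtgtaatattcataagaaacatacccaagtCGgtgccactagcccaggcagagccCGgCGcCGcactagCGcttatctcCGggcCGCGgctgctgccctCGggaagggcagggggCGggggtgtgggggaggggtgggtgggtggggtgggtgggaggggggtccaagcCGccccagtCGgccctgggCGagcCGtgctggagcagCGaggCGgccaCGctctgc
HOXA4 promoter: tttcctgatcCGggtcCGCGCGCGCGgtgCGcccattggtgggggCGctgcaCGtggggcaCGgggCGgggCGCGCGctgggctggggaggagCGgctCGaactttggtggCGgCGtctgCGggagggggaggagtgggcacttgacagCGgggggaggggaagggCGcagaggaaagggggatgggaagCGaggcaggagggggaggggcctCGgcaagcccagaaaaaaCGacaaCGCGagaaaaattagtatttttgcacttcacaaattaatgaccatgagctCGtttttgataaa
The HOXA3 window shown holds 25 CG pairs, the 7 HOXA3 windows 0 to 29 and the HOXA4 window 27, against a median of 14 in 35116 promoter windows of the same length. Of the 39 symbols 20 had an entry, with 27 windows and a median of 22 CG pairs. These windows are not independent, since 7 belong to HOXA3, and HOXC4 and HOXC5 have the same window. Only 5 of the 20 symbols (HOXA2, HOXA3, HOXA4, HOXA6 and HOXA7) passed the filter on low counts, and none is an abundant HOXB gene. Searched on both strands, CCAAT lay in 66.7% of HOX windows and 34.6% of all windows. The HOX-PBX motif TGATTNAT lay in 7.41% and 2.82%, and the retinoic acid receptor half-site AGGTCA in 0.0% and 13.8%. Among HOX windows only those of HOXA2 and HOXD11 held the HOX-PBX motif. Which start was used is not seen in 3′ tags.

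HOXB4 had 95.9, 122 and 87.0 CPM in siControl RAS libraries, against 73.9, 82.0 and 62.2 CPM in control libraries. The ranges lay close together without overlap. The rise was 0.48 ± 0.13 (adjusted p = 0.00273), or 1.40-fold.

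The most 5′ expressed HOXB gene, HOXB8, which keeps myeloid progenitors dividing when forced on in mouse, rose more. HOXB8 had 12.8, 12.2 and 16 CPM in siControl RAS libraries, against 5.78, 3.46 and 6.49 CPM in control libraries. All siControl RAS libraries were well above all control libraries. The change was 1.38 ± 0.30 (adjusted p = 0.000268), a 2.60-fold rise.

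HOXC8, in the HOXC cluster, had counts in RAS cells and none in control cells. The siControl RAS libraries had 1.91, 1.31 and 1.25 CPM, 28 counts in all, and the control libraries had 0. Against a floor of 3 counts over the control group HOXC8 was at least 9.43-fold higher (adjusted p = 0.00326). HOXC8 passed the filter through RAS libraries, where it is higher, and did not pass it with the compared groups alone, so its calls against control carry that limit.

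**Figure D2:**
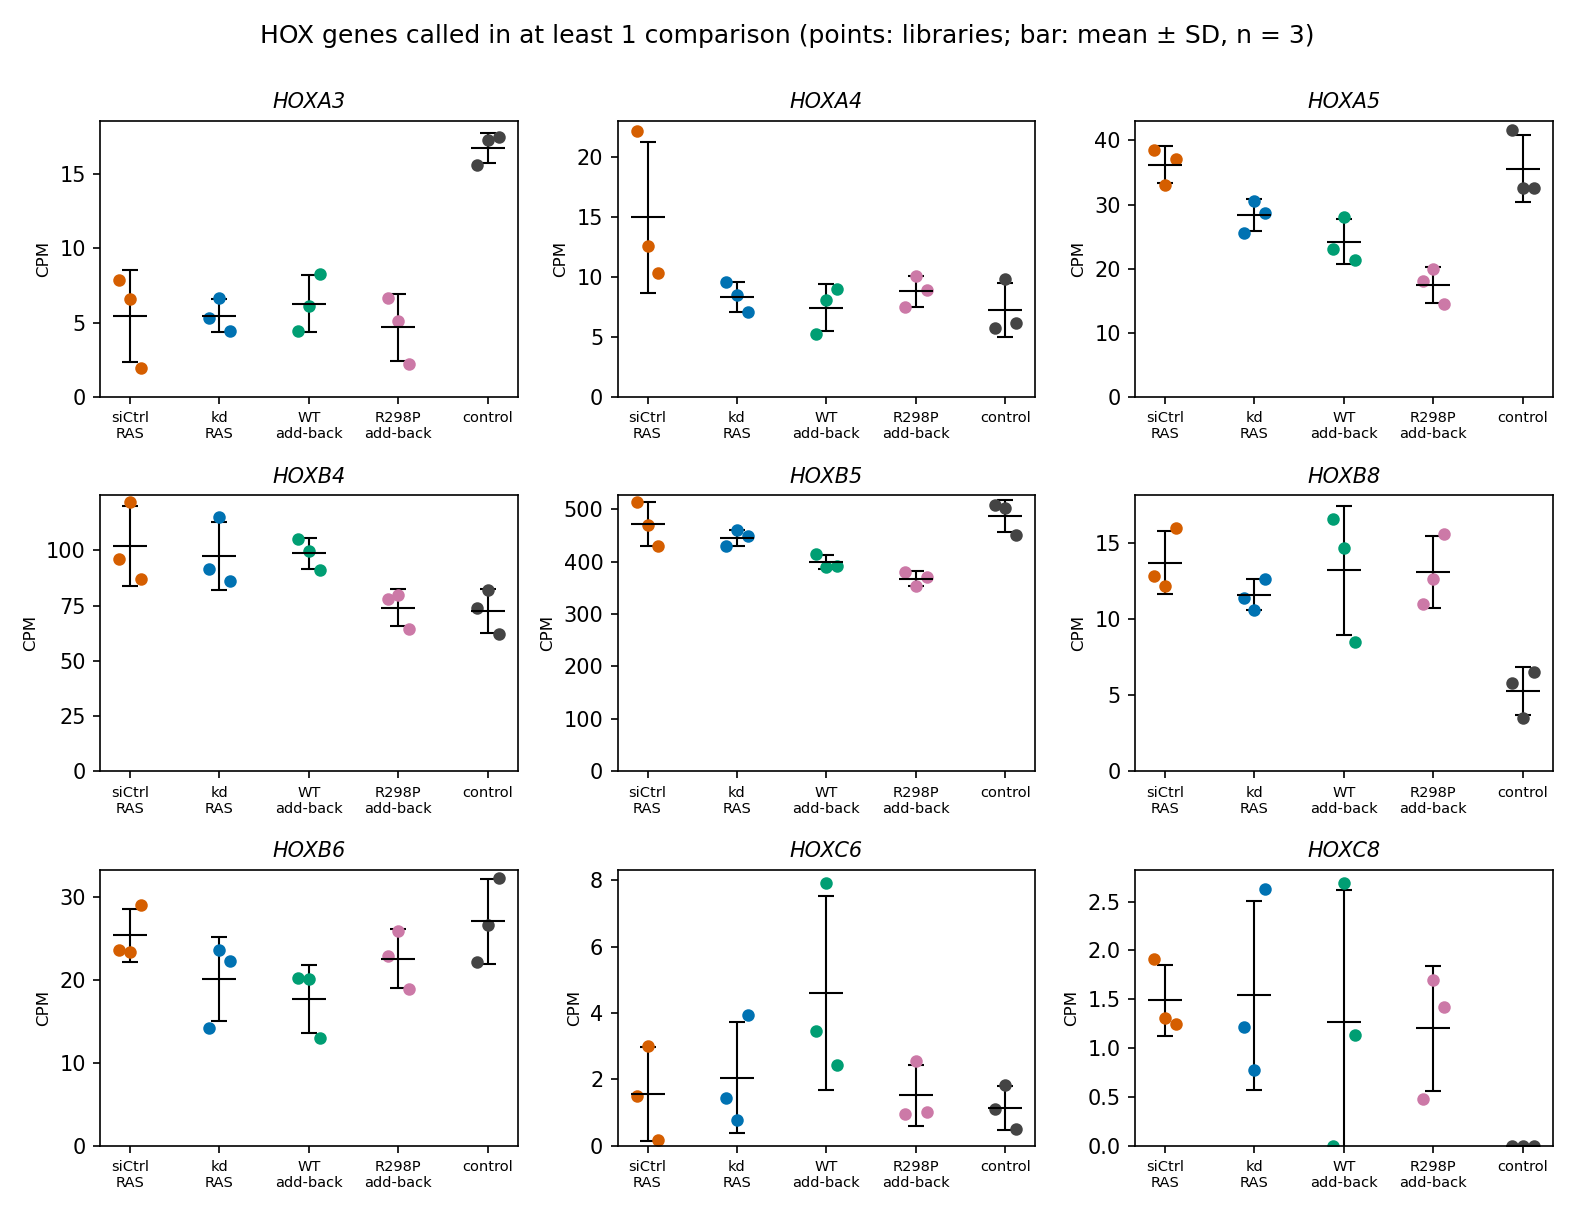
CPM of the 9 HOX genes called in at least 1 comparison, with a point for each library, a bar for the mean and whiskers for the SD (n = 3); whiskers below 0 are not drawn. HOXA3 is higher in the 3 control libraries (15.6 to 17.5 CPM) than in any RAS library, HOXB8 is lower there (3.46 to 6.49 CPM), and HOXA5 and HOXB5 are lowest in R298P add-back libraries.

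The remaining 11 tested genes were not called. HOXA7 came nearest: it had 2.45, 2.06 and 4.63 CPM in siControl RAS and 5.78, 5.76 and 7.15 CPM in control libraries, with no overlap, a difference of -1.03 ± 0.45 and an adjusted p of 0.0579. It was called in 4 of 14 alternative fits, among them the one without siControl RAS replicate 3. HOXB2, a gene of hindbrain motor neurons, had 34.3, 47.0 and 45.8 CPM in siControl RAS and 28.4, 35.9 and 35.9 CPM in control libraries, a difference of 0.34 ± 0.18 with overlap (adjusted p = 0.125).

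HOXB3, HOXB5, HOXB6 and HOXA5, all among the more abundant, lay at nearly the same level in both groups. HOXB3 had 76.3, 84.9 and 61.1 CPM in siControl RAS and 71.6, 83.5 and 70.0 CPM in control libraries, a difference of -0.02 ± 0.12. HOXB5 had 514, 471 and 430 CPM in siControl RAS and 509, 503 and 452 CPM in control libraries, a difference of -0.05 ± 0.07. In both genes the ranges overlapped. HOXA5 had 38.5, 33.0 and 37.1 CPM in siControl RAS and 41.7, 32.6 and 32.6 CPM in control libraries, a difference of 0.02 ± 0.17. HOXB6 had 23.7, 23.4 and 29.1 CPM in siControl RAS and 22.2, 26.7 and 32.4 CPM in control libraries, a difference of -0.09 ± 0.21. Here too the ranges overlapped. HOXB7, which is often overexpressed in breast cancer, had 47.5, 42.0 and 55.4 CPM in siControl RAS and 37.3, 42.2 and 44.6 CPM in control libraries, a difference of 0.22 ± 0.14 with overlap. HOXA2, HOXA6 and HOXC6 averaged 0.926 to 1.56 CPM in siControl RAS and 1.13 to 2.20 CPM in control cells, with SE of 0.83 to 0.99 on the log2 change, and none was called. HOXA2 differed by -1.22 ± 0.99, so at these low counts even a log2 difference of more than 1 in size was not called.

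Each of the other RAS groups was set against the same 3 control libraries, which these comparisons therefore share. These groups differ from control in RAS, the siRNA and the lentivirus at once, and the add-backs also in added METTL14. Such effects cannot be told apart in any result against control in these groups. HOXA3 had 4.43 to 6.64 CPM in knockdown, 4.45 to 8.27 CPM in wild-type add-back and 2.23 to 6.68 CPM in R298P add-back libraries, all below the 15.6 to 17.5 CPM of control libraries. HOXB8 had 10.6 to 12.6 CPM, 8.46 to 16.6 CPM and 11 to 15.6 CPM in the same groups, all above the 3.46 to 6.49 CPM of control libraries. HOXA3 was lower than in control, at -1.62 ± 0.39 in knockdown, -1.41 ± 0.39 in wild-type and -1.82 ± 0.39 in R298P add-back cells, and HOXB8 higher, at 1.14 ± 0.30, 1.33 ± 0.30 and 1.31 ± 0.30 in the same order, all called. HOXC8 was at least 9.51-fold, 8.72-fold and 7.21-fold higher and called in each, although wild-type replicate 1 had 0 counts of it; without wild-type replicate 2 its adjusted p was 0.0607. In knockdown against control 4 of 16 HOX genes were called, or 25%, against 36.0% of all genes. In wild-type add-back against control 8 were called, or 50%, against 37.0%, and in R298P add-back against control 5, or 31.2%, against 37.4%. The count of 8 became 5 to 7 with 1 library left out.

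HOXB4 was higher than in control in knockdown (0.42 ± 0.13, adjusted p = 0.0105) and wild-type add-back cells (0.44 ± 0.13, adjusted p = 0.00776) and not called in R298P add-back cells (0.03 ± 0.13, adjusted p = 0.891). The first call was lost without control replicate 3 (adjusted p = 0.0753) or knockdown replicate 2 (0.110), and the second without control replicate 3 (0.0617). HOXA5 fell to 24.2 ± 3.51 CPM in wild-type and 17.4 ± 2.81 CPM in R298P add-back cells, against 35.6 ± 5.26 CPM in control cells, with changes of -0.55 ± 0.18 (adjusted p = 0.0118) and -1.03 ± 0.18 (adjusted p = 1.77e-05). HOXB5 fell to 399 ± 13.5 CPM in wild-type and 368 ± 13.8 CPM in R298P add-back cells, against 488 ± 31.0 CPM in control cells, with changes of -0.29 ± 0.07 (adjusted p = 0.00107) and -0.41 ± 0.07 (adjusted p = 1.30e-05). Of these falls only that of HOXA5 in wild-type cells was lost with a library left out, with an adjusted p of 0.0934 without control replicate 1 and 0.0650 without wild-type replicate 3.

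HOXB6 (-0.61 ± 0.22, adjusted p = 0.0263) and HOXC6 (2.01 ± 0.80, adjusted p = 0.0469) were called in wild-type add-back against control alone of these comparisons. HOXB6 had 20.2, 20.1 and 13 CPM in wild-type add-back and 22.2, 26.7 and 32.4 CPM in control libraries, and its call was lost without wild-type replicate 3 (adjusted p = 0.167), control replicate 2 (0.0508) or control replicate 3 (0.152). HOXC6 had 3.44, 7.93 and 2.44 CPM in wild-type add-back and 1.09, 1.81 and 0.499 CPM in control libraries. Its call was lost without wild-type replicate 1 (adjusted p = 0.0612), wild-type replicate 2 (0.308), control replicate 1 (0.108) or control replicate 3 (0.164), and with a replicate block (1.96, adjusted p = 0.0544). Over all 5 groups at once, edgeR's test of equal means called HOXA3, HOXA4, HOXA5, HOXB4, HOXB5, HOXB8 and HOXC8, 7 of 16 genes or 43.8%, against 44.4% of all genes.

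**Figure D3:**
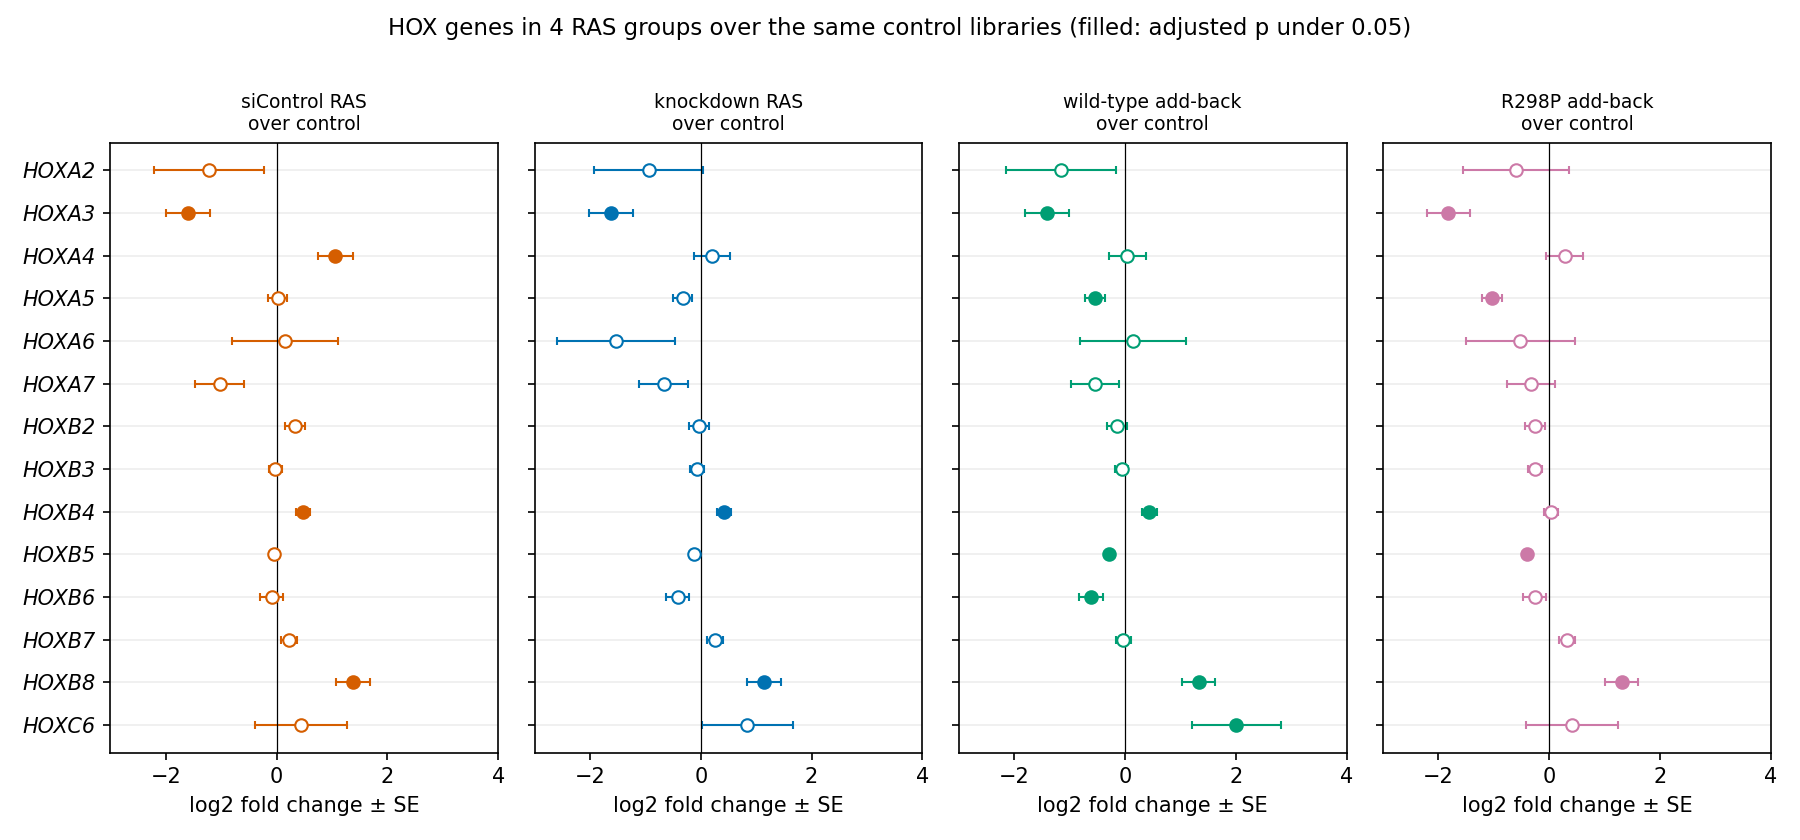
Log2 fold change ± SE of 14 tested HOX genes in siControl RAS, knockdown, wild-type and R298P add-back cells over the same 3 control libraries; filled points were called at an adjusted p under 0.05. HOXC8, with 0 control counts, is left out. HOXA3 is at -1.82 to -1.41 and HOXB8 at 1.14 to 1.38 in the 4 panels.

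Knockdown against siControl RAS sets RAS cells with lowered METTL14 beside RAS cells with the siRNA that has no target. Knockdown cells also carried a lentiviral vector, which is not stated for siControl RAS cells. Effects of the siRNA and of the lentivirus may therefore not be told apart in any result of this comparison. No HOX gene was called by edgeR, against 15.5% of all genes, nor by DESeq2 or limma-voom, and 3 (HOXA4, HOXA5 and HOXB2) had an unadjusted p under 0.05, which 26.5% of all genes had. The median change of the 16 genes was -0.06, against 0.00 for all genes. Fibroblast markers moved in the same comparison: 7 of 12 fell and 2 rose, and they summed to 18785.5 to 19539.1 CPM in knockdown and 22783.9 to 23850.6 CPM in siControl RAS libraries. Epithelial markers summed to 84.7 to 95.9 CPM in knockdown and 52.6 to 70.2 CPM in siControl RAS libraries, and the part of either in the HOX values was not tested.

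HOXA4 came nearest, with 9.55, 8.49 and 7.06 CPM in knockdown libraries, against 22.2, 12.6 and 10.3 CPM in siControl RAS libraries. The knockdown libraries lay below the siControl RAS libraries and within the control range. The difference was -0.86 ± 0.32 (adjusted p = 0.0661), and it depended on the siControl RAS libraries. Without replicate 1, the highest, it was -0.45 (adjusted p = 0.490), and without replicate 3 it was -1.06 and called (adjusted p = 0.0325). HOXA5 had 25.6, 30.6 and 28.7 CPM in knockdown and 38.5, 33.0 and 37.1 CPM in siControl RAS libraries, with no overlap and a difference of -0.35 ± 0.17 (adjusted p = 0.187). HOXB2 had 27.4, 29.6 and 40.5 CPM in knockdown and 34.3, 47.0 and 45.8 CPM in siControl RAS libraries, a difference of -0.37 ± 0.18 (adjusted p = 0.179). The other HOXB genes differed by -0.33 to 0.04, with SE of 0.07 to 0.28.

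Each add-back was set against knockdown with vector, which addresses the effect of adding METTL14 or its R298P form. In both add-backs METTL14 RNA lay far above its level in siControl RAS and control cells. Fibroblast markers summed to 21082.6 to 22470.2 CPM in wild-type add-back, 20541.3 to 21682.8 CPM in R298P add-back and 18785.5 to 19539.1 CPM in knockdown libraries, and their part in the HOX values was not tested. With wild-type METTL14 no HOX gene was called by edgeR, DESeq2 or limma-voom, against 0.621% of all genes in edgeR, and HOXB5 and HOXB7 had an unadjusted p under 0.05, as 7.55% of all genes did. HOXB5 had 415, 391 and 392 CPM in wild-type add-back libraries, against 430, 460 and 449 CPM in knockdown libraries, a difference of -0.16 ± 0.07 (adjusted p = 0.569). HOXB7 had 35.8, 45.0 and 40.8 CPM in wild-type add-back libraries, against 46.7, 48.8 and 53.3 CPM in knockdown libraries, a difference of -0.29 ± 0.14 (adjusted p = 0.648). Neither gene overlapped between the groups.

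With R298P METTL14 the lung mesenchyme genes HOXA5 and HOXB5 fell, 2 of 16 HOX genes or 12.5%, against 1.09% of all genes called and 0.555% called lower. HOXA5 had 18.0, 19.9 and 14.4 CPM in R298P add-back libraries, against 25.6, 30.6 and 28.7 CPM in knockdown libraries. HOXB5 had 381, 354 and 370 CPM in R298P add-back libraries, against 430, 460 and 449 CPM in knockdown libraries. In both genes every R298P library lay below every knockdown library. HOXA5 changed by -0.70 ± 0.18 (adjusted p = 0.0491) and HOXB5 by -0.28 ± 0.07 (adjusted p = 0.0375).

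Both calls stood near the threshold. Leaving out knockdown replicate 2 or 3, or R298P replicate 1, 2 or 3, ended them, with adjusted p of 0.0719 to 0.290 for HOXA5 and 0.0695 to 0.231 for HOXB5 and changes of -0.80 to -0.58 and -0.30 to -0.25. HOXB4 had 77.9, 79.9 and 64.5 CPM in R298P add-back libraries, against 91.4, 115 and 86.0 CPM in knockdown libraries, with no overlap and a difference of -0.39 ± 0.13 (adjusted p = 0.192). In 5 of the 16 HOX genes the libraries did not overlap, against 15% of all genes, among them HOXA5, HOXB3, HOXB4 and HOXB5, each lower in R298P add-back.

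R298P against wild-type add-back gave no called HOX gene by edgeR, DESeq2 or limma-voom, against 0.0222% of all genes in edgeR. HOXA5, HOXB4, HOXB7 and HOXC6 had an unadjusted p under 0.05, 25% of the 16, against 4.92% of all genes. HOXA5 had 18.0, 19.9 and 14.4 CPM in R298P and 23.0, 28.1 and 21.4 CPM in wild-type add-back libraries, a difference of -0.47 ± 0.18 (adjusted p = 0.964). HOXB4 had 77.9, 79.9 and 64.5 CPM in R298P and 105, 99.8 and 91.1 CPM in wild-type add-back libraries, a difference of -0.41 ± 0.13 (adjusted p = 0.762). HOXB7 went the other way, with 48.2, 51.3 and 56.0 CPM in R298P and 35.8, 45.0 and 40.8 CPM in wild-type add-back libraries, a difference of 0.35 ± 0.14 (adjusted p = 0.980). The libraries of HOXA5, HOXB4 and HOXB7 did not overlap, nor did those of HOXB3 and HOXB5, 5 of 16 genes, against 11.7% of all genes, while those of HOXC6 overlapped. METTL14 itself was 1.73-fold higher in R298P than in wild-type add-back cells (adjusted p = 0.0322); its part in these differences was not tested.

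**Figure D4:**
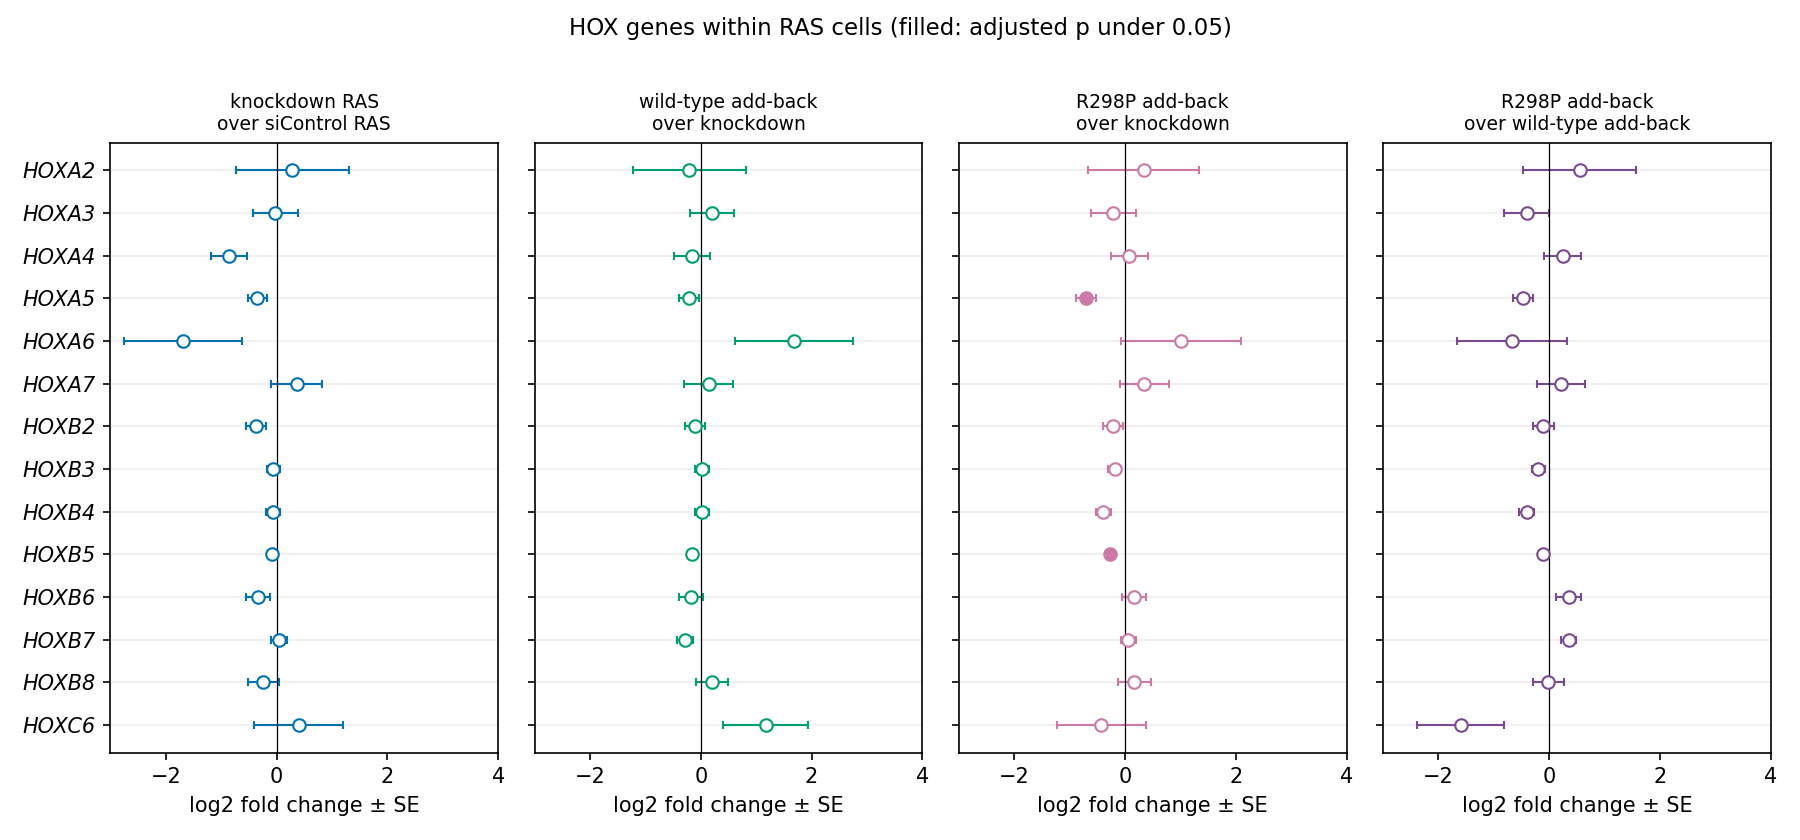
Log2 fold change ± SE of 14 tested HOX genes in 4 comparisons among RAS cells; filled points were called at an adjusted p under 0.05, and HOXC8 is left out. HOXA5 (-0.70) and HOXB5 (-0.28) in R298P add-back over knockdown are the only filled points. The panels of both add-backs over knockdown share the knockdown libraries.

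Noncoding RNAs are transcribed between and across HOX genes, and some help switch their neighbours on or off. Of 19 such RNAs listed, 18 had an ID and 4 were tested: HOTAIRM1 and HOXA-AS2 in HOXA, and HOXB-AS1 and HOXB-AS3 in HOXB. HOTAIR, made in the 5′ part of HOXC, had 0 counts in all libraries, and HOTTIP, made at the 5′ end of HOXA, had 1. In siControl RAS against control, HOXB-AS1 rose and the other 3 fell. For this and the lists that follow, 24.0% of all genes rose and 21.9% fell in that comparison, and 15.5% were called in knockdown against siControl RAS. Both comparisons share the siControl RAS libraries, so a gene's changes in them are not independent.

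HOXA-AS2, which overlaps HOXA3 and HOXA4 on the opposite strand, had 1.91, 1.69 and 0.891 CPM in siControl RAS libraries, against 3.28, 6.26 and 7.15 CPM in control libraries. The groups did not overlap, and the change was -1.87 ± 0.59 (adjusted p = 0.00941). HOXB-AS1, which overlaps HOXB2 and HOXB3 on the opposite strand, had 7.90, 19.7 and 11.9 CPM in siControl RAS libraries, against 6.41, 4.61 and 4.49 CPM in control libraries. The rise was 1.33 ± 0.37 (adjusted p = 0.00346), and without siControl RAS replicate 2 it was 0.93 and not called (adjusted p = 0.0606). Whether counting used strand is not stated, so tags of these RNAs and of the HOX genes they overlap may not be separated.

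HOXB-AS3, which overlaps HOXB3 to HOXB6 on the opposite strand, rose in the knockdown. It had 26.8, 36.0 and 29.2 CPM in knockdown libraries, against 13.6, 18.0 and 15.3 CPM in siControl RAS libraries. The groups lay far apart, the rise was 0.98 ± 0.19 (adjusted p = 0.000216), and siControl RAS cells were lower than control (34.1, 22.1 and 32.4 CPM) by -0.92 ± 0.19 (adjusted p = 0.000113). The add-back groups averaged 32.0 ± 1.49 CPM with wild-type and 30.8 ± 1.51 CPM with R298P METTL14, against 30.7 ± 4.74 CPM with vector.

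HOTAIRM1, made at the 3′ end of HOXA, had 9.94, 14.1 and 22.1 CPM in siControl RAS libraries, against 25.2, 38.0 and 23.0 CPM in control libraries, a change of -0.91 ± 0.24 (adjusted p = 0.00176). In R298P add-back libraries it had 33.6, 25.9 and 34.5 CPM, against 16.6, 14.2 and 17.1 CPM in wild-type add-back libraries. The groups did not overlap, but the difference of 0.97 ± 0.24 was not called over all genes (adjusted p = 0.280). HOTAIRM1 was singled out in this last comparison after its values were seen.

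**Figure D5:**
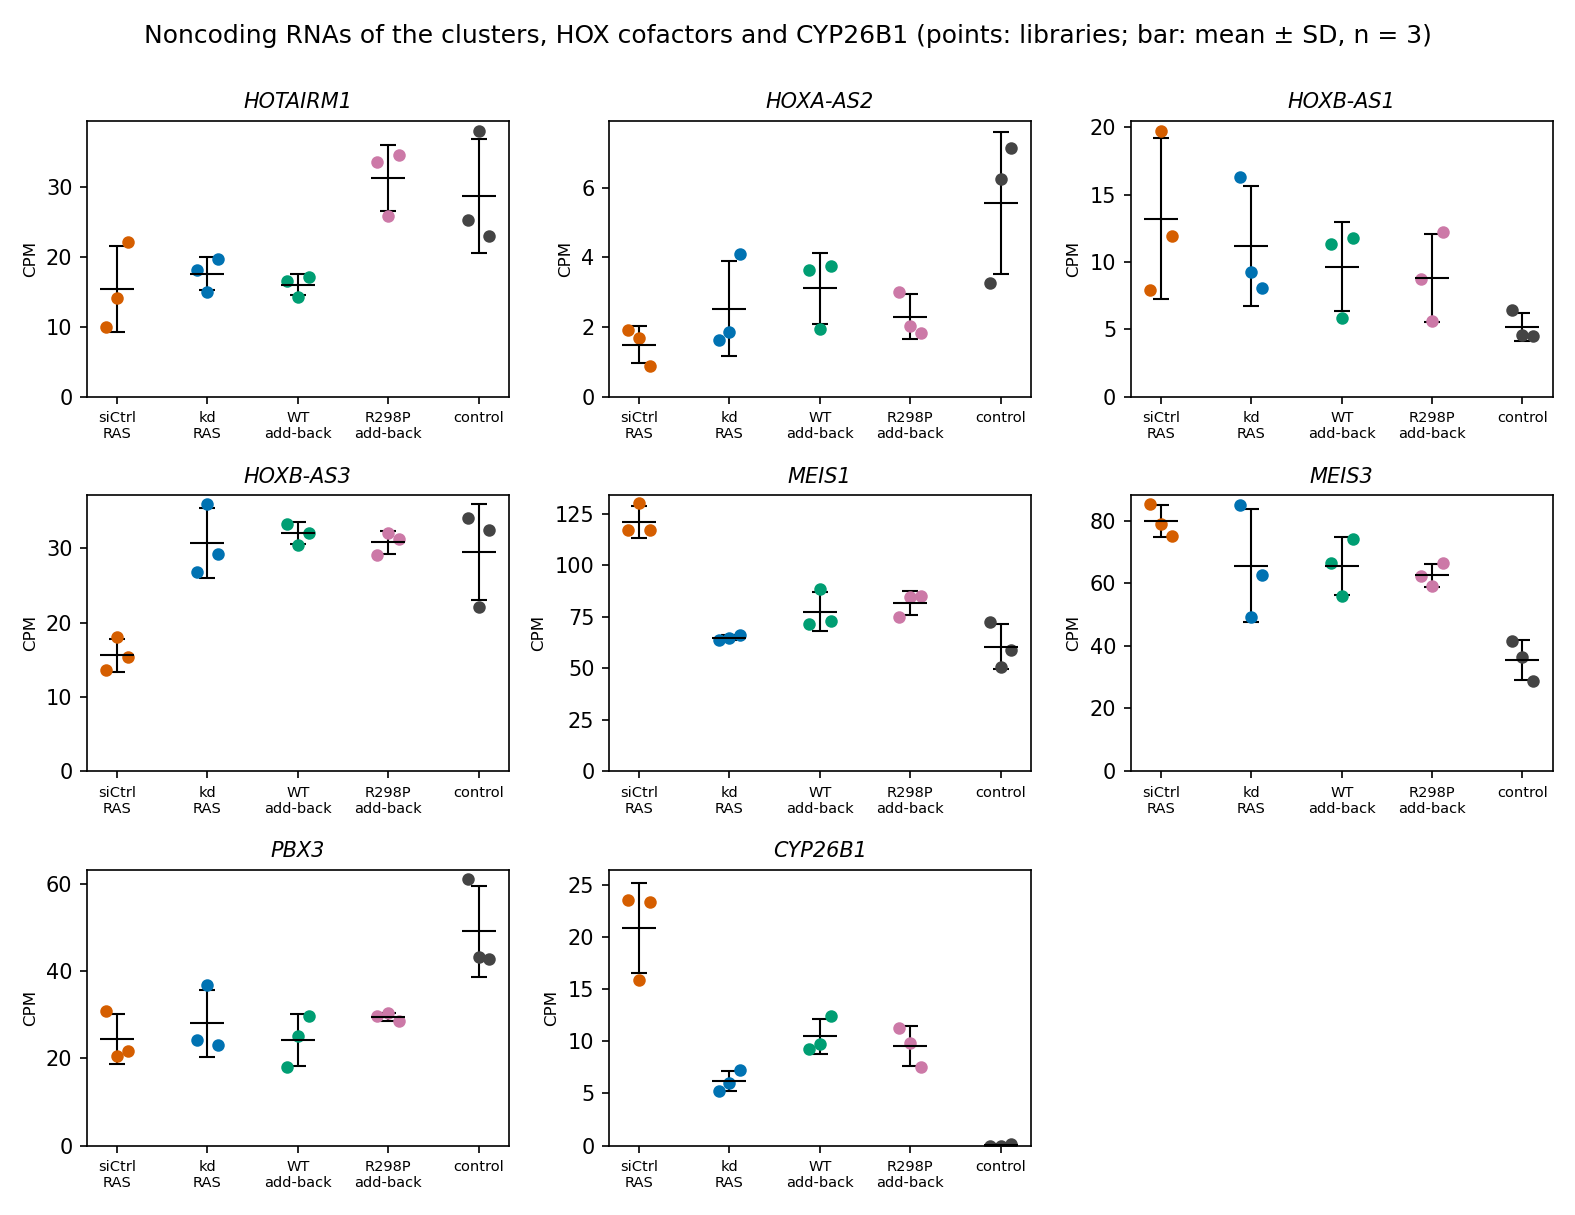
CPM of 4 noncoding RNAs of the clusters, 3 HOX cofactors and CYP26B1, with a point for each library, a bar for the mean and whiskers for the SD (n = 3). HOXB-AS3 is lowest in siControl RAS libraries (13.6 to 18.0 CPM), MEIS1 and CYP26B1 are highest there, and CYP26B1 is near 0 in control libraries.

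The PBX, MEIS and PKNOX cofactors numbered 9, of which 8 were tested. In siControl RAS against control 3 rose, MEIS1 and MEIS3 among them, and PBX3 fell. MEIS3 averaged 79.8 ± 5.09 CPM in siControl RAS and 35.6 ± 6.37 CPM in control cells, a rise of 1.16 ± 0.16 (adjusted p = 3.94e-07). MEIS1 had 117, 130 and 117 CPM in siControl RAS libraries, against 72.2, 50.6 and 58.6 CPM in control libraries, a rise of 1.00 ± 0.12 (adjusted p = 9.75e-09). PBX3 averaged 24.4 ± 5.65 CPM in siControl RAS and 49.1 ± 10.4 CPM in control cells, a fall of -1.0 ± 0.20 (adjusted p = 0.000112).

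In knockdown against siControl RAS, MEIS1 was the cofactor called, with 63.8, 64.5 and 66.1 CPM in knockdown libraries, against 117, 130 and 117 CPM in siControl RAS libraries. The knockdown libraries lay within the control range, and the fall was -0.90 ± 0.12 (adjusted p = 4.66e-07). This fall and the rise of MEIS1 against control share the siControl RAS libraries. No cofactor was called in add-back against knockdown or between the add-backs.

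Of 15 listed genes that make, sense or break down retinoic acid, 10 were tested, 6 rose and 1 fell in siControl RAS against control, where 24.0% of all genes rose and 21.9% fell. CYP26B1, which breaks down retinoic acid, had 23.6, 15.9 and 23.4 CPM in siControl RAS libraries, 389 counts in all, against 1 count in control libraries. The ratio of normalised counts was 393, with a 95% interval for counting error of 70.1 to 15566 (adjusted p = 2.59e-14). RARB, a retinoic acid receptor that is itself a target of the hormone, had 44 counts in siControl RAS and 0 in control libraries, at least 14.8-fold higher (adjusted p = 0.000831). Both CYP26B1 and RARB passed the filter through RAS libraries, where they are higher, so their calls against control carry that limit. Both are counted among the 6 genes that rose. RARB did not pass the filter with the compared groups alone. ALDH1A3, which makes retinoic acid, averaged 51.5 ± 8.26 CPM in siControl RAS and 13.6 ± 2.30 CPM in control cells, a rise of 1.92 ± 0.20 (adjusted p = 4.19e-10).

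In knockdown against siControl RAS 4 of these 10 genes fell (ALDH1A3, CRABP2, CYP26B1 and RXRA) and 2 rose (DHRS3 and RDH10), against 15.5% of all genes called. CYP26B1 had 5.28, 6.02 and 7.22 CPM in knockdown libraries, against 23.6, 15.9 and 23.4 CPM in siControl RAS libraries, a fall of -1.76 ± 0.31 (adjusted p = 5.52e-05). ALDH1A3 averaged 19.9 ± 1.92 CPM in knockdown and 51.5 ± 8.26 CPM in siControl RAS cells, a fall of -1.37 ± 0.19 (adjusted p = 1.48e-06). The libraries of both genes did not overlap.

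Genes that flank the clusters numbered 16, of which 11 were tested, 2 rose and 2 fell in siControl RAS against control. CALCOCO1, beside HOXC, averaged 32.7 ± 3.64 CPM in siControl RAS and 15.3 ± 3.22 CPM in control cells, a rise of 1.10 ± 0.20 (adjusted p = 1.76e-05). CBX5, the heterochromatin protein on the other flank of HOXC, averaged 168 ± 14.5 CPM in siControl RAS and 344 ± 17.0 CPM in control cells, a fall of -1.03 ± 0.08 (adjusted p = 2.96e-13). In knockdown against siControl RAS, CALCOCO2 beside HOXB fell by -0.36 ± 0.11 (adjusted p = 0.0242) and CBX5 rose by 0.24 ± 0.08 (adjusted p = 0.0321); each call was lost in 5 of 14 alternative fits.

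Of 13 Trithorax-type and MLL complex genes, all tested, 3 rose and 3 fell in siControl RAS against control and none was called in knockdown against siControl RAS. KMT2A, the methyltransferase that keeps HOX genes active, averaged 363 ± 29.8 CPM in siControl RAS and 190 ± 14.9 CPM in control cells, a rise of 0.93 ± 0.08 (adjusted p = 9.45e-12). MLLT3, a partner of transcription elongation complexes, averaged 54.8 ± 4.10 CPM in siControl RAS and 24.4 ± 5.54 CPM in control cells, a rise of 1.17 ± 0.15 (adjusted p = 7.39e-08). Of 19 Polycomb genes, 18 were tested, 5 rose and 2 fell in siControl RAS against control, and 2 fell in knockdown against siControl RAS, JARID2 among them. EZH2, the Polycomb methyltransferase, averaged 7.51 ± 2.13 CPM in siControl RAS and 45.9 ± 4.97 CPM in control cells, a fall of -2.59 ± 0.24 (adjusted p = 3.84e-11). JARID2, which helps place that complex on chromatin, averaged 126 ± 19.4 CPM in siControl RAS and 54.3 ± 11 CPM in control cells, a rise of 1.22 ± 0.13 (adjusted p = 5.95e-10). In knockdown cells JARID2 averaged 72.5 ± 6.21 CPM, a fall of -0.80 ± 0.12 relative to siControl RAS (adjusted p = 9.17e-06).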

How the data were processed

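Per the labels' protocols, 15 libraries of IMR90 RNA were made with Lexogen's QuantSeq 3′ kit. The authors deposited raw counts for 57736 Ensembl IDs in a single table. Bowtie2, RSEM 1.2.12 and hg19 are named without a role, per the submitters' processing notes; for annotation, filters and strand setting, the sources used here give nothing. RSEM gives estimates with decimals, but all deposited counts are whole.

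Symbols came from a gene symbol table and otherwise from GENCODE 29, by Ensembl ID, and named 52301 IDs (90.6%). Coordinates and sequences are of GRCh38, from GENCODE 29 and RefSeq, and were used for description alone. The median total was 5853195 counts, the lowest 4917661 and the highest 7763084. Within groups, pairs of libraries differed by more than sampling noise (chi-square per degree of freedom 3.55 to 8.95).

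All 15 libraries were fitted in 1 model of 5 group means in edgeR 4.0.16 (R 4.3.3), with TMM scaling, the filterByExpr filter and robust quasi-likelihood tests on 10 residual degrees of freedom, which left 13516 genes; the fit was tested on simulated data. With 3 libraries a group the smallest exact permutation p is 0.1, so none was used. Alternatives were DESeq2 1.42.0, limma 3.58.1 (voom), other scaling factors, no filter, a replicate block, the compared groups alone, and fits with libraries left out. Floors of 0 are 3 counts, and floors and intervals cover counting error only. The rule was to give every library's value for HOX genes whose mean reached 10 CPM in some group. From each other list, at most the 2 called genes of largest change in siControl RAS against control and in knockdown against siControl RAS were chosen by rule; the others named were chosen after their values were seen. The members and lists were chosen with earlier results of these data known. Results of a few genes, though counted among the members and lists, are not reported here.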

Additional observations from a re-analysis of the deposited data

How the results depend on the processing

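Over 8 comparisons and 16 HOX genes, 24 of 128 changes were called, 15 of these in every alternative fit that could be run and 9 not in some, and none changed direction. Of 104 changes not called, 4 were called in some fit (HOXA7 and HOXB2 in siControl RAS against control, HOXA4 in knockdown against siControl RAS and HOXB4 in R298P add-back against knockdown). For HOXC6 in wild-type add-back against control the adjusted p was 0.0532 with DESeq2 and 0.0514 with limma-voom, and for HOXC8 there 0.0889 with limma-voom; the cause was not tested. HOXC8 did not pass the filter with the compared groups alone.

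R298P add-back against knockdown gave 2 called HOX genes and 1 with limma-voom, 0 with the compared groups alone, 0 without replicate 3 of siControl RAS, of wild-type and of R298P together, and 0 to 2 with 1 library left out. Knockdown against siControl RAS gave 0, 1 without those 3 libraries, and 0 to 1 with 1 library left out. Wild-type add-back against control gave 8, and 5 to 7 with 1 library left out (5 without control replicate 3). With members 1 to 5 counted as the 3′ end, its share became 88.5% in siControl RAS, 88.5% in knockdown, 88.5% in wild-type add-back, 85.4% in R298P add-back and 89.8% in control, since HOXB5 then belongs to it. Other scaling factors moved the median of all genes by at most 0.037 on the log2 scale.

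Replicate numbers were checked as pairs: over 30 pairs with the same number, deviations from group means correlated at -0.0541 to 0.0681, while 8 of 15 libraries correlated best within their number; this was not taken as pairing. With a replicate block, 5 HOX genes were called in siControl RAS against control, 0 in knockdown against siControl RAS, 0 and 3 in wild-type and R298P add-back against knockdown, 0 between the add-backs, and 4, 7 and 5 in knockdown, wild-type and R298P add-back against control. The block ended the call of HOXC6 in wild-type add-back against control (adjusted p = 0.0544) and added HOXB4 in R298P add-back against knockdown (-0.39, adjusted p = 0.0492).

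Depth limits the genes near 1 CPM, where 3 counts in the shallowest library make 0.61 CPM, and the 24 HOX rows below the filter were not tested.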

Other observations

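Of 25 other transcription factors that mark position or lung mesenchyme, 9 were tested. In siControl RAS against control 4 rose (FOXF1, FOXF2, PITX1 and TBX3) and 3 fell, TBX5 and TCF21 among them, with a median change of 0.37, against 24.0% of all genes that rose and 21.9% that fell. TBX3, a T-box gene of limb and lung that represses senescence genes when overexpressed, had 839, 790 and 711 CPM in siControl RAS libraries, against 354, 353 and 321 CPM in control libraries, a rise of 1.19 ± 0.07 (edgeR adjusted p = 1.75e-16). The groups lay far apart. TCF21, which marks fibroblast precursors of lung and heart, had 25.9, 24.2 and 26.9 CPM in siControl RAS libraries, against 44.1, 37.2 and 36.3 CPM in control libraries, a fall of -0.61 ± 0.20 (adjusted p = 0.0119). The groups did not overlap, but without control replicate 1 the change was -0.52 and not called (adjusted p = 0.0636).

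In knockdown against siControl RAS 6 of these 9 genes were called, 2 higher, PITX1 among them, and 4 lower (TBX2, TBX3, TBX5 and TCF21), against 15.5% of all genes called. TBX3 had 436, 460 and 457 CPM in knockdown libraries, against 839, 790 and 711 CPM in siControl RAS libraries, a fall of -0.79 ± 0.07 (adjusted p = 5.43e-11). TCF21 averaged 14 ± 2.66 CPM in knockdown and 25.7 ± 1.39 CPM in siControl RAS cells, a fall of -0.87 ± 0.21 (adjusted p = 0.00338). Both genes were without overlap between these groups, and both comparisons share the siControl RAS libraries.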
